A study of Mus musculus with 6 samples.

Results

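Homologous recombination and the Fanconi anemia pathway are connected routes of DNA repair, and 36 genes of these routes and their partners were examined in mouse macrophages of 2 genotypes. The genes were chosen by name, as rows of the deposited table whose symbol stood on the list, and all 36 were found among its 18039 genes. Of these, 35 had enough counts to be tested, and Rmi2 did not. Bulk RNA was sequenced from macrophages that had been grown out of mouse bone marrow for 7 days with the growth factor M-CSF at 20 ng/mL. The groups were Ctrl and KAT7KO, each with 3 libraries that the labels call biological replicates, and both had the same culture. KAT7 is a lysine acetyltransferase that acetylates histones. The allele, the cells in which it was deleted, the mouse strain, and the age and number of the animals are not stated in the labels. Nothing says that the replicates came from separate animals, so the p-values rest on the spread among these 6 libraries, which may be technical.

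Homologous recombination repairs a broken chromosome from an intact sister copy, which exists only after replication, so the route works mainly in S and G2 phase. The break is sensed and its ends are cut back to single strands, BRCA1, PALB2 and BRCA2 prepare these strands to invade the intact copy, and helicases and nucleases then resolve the joined molecules. The Fanconi pathway detects crosslinks between the strands of DNA at stalled replication forks: a core complex attaches ubiquitin to FANCD2 and FANCI, and the opened crosslink is finished by recombination. Many of these genes are known to be expressed most in dividing cells. Parp1 and Msh6 stand at the edge of the list: PARP1 marks DNA strand breaks with chains of ADP-ribose, and MSH6 recognises mismatched bases.

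The 6 libraries held 19906726 to 20660090 counts. Levels are given as CPM, which is counts scaled to library size with TMM factors, and 3 counts in 1 library are 0.145 to 0.152 CPM. Kat7, read over the whole gene, lay at 69.0 to 73.2 CPM in Ctrl and at 38.2 to 42.2 CPM in KAT7KO, so KAT7KO RNA was 57.3% of Ctrl. All 10 macrophage markers were measured. All 18039 deposited genes had counts in some library, so a marker without any count could not appear among them. Present were 7 of 10 listed markers for neutrophils, 7 of 8 for B cells and 5 of 7 for dendritic cells. For erythroid and megakaryocyte cells 4 of 8 were present, for mast cells 3 of 6 and for stroma and endothelium 8 of 10. The summed level of 7 B cell markers was 4.16 to 5.57 CPM in Ctrl and 8.16 to 9.28 CPM in KAT7KO, and that of 7 neutrophil markers 7.20 to 7.39 CPM and 10.7 to 12.3 CPM. Progenitor markers summed to 43.6 to 50.1 CPM in Ctrl and 31.2 to 32.2 CPM in KAT7KO, and macrophage markers to 27771 to 37515 CPM and 22544 to 23379 CPM. The macrophage sum does not describe each marker: 5 log2 fold changes were below 0 and 5 above, with a median of -0.018. Erythroid and megakaryocyte markers summed to 49.8 to 68.3 CPM in Ctrl and 36.7 to 39.4 CPM in KAT7KO, stromal and endothelial markers to 639 to 862 CPM and 600 to 613 CPM, and dendritic cell markers to 193 to 243 CPM and 184 to 192 CPM. T and NK cell markers summed to 2.98 to 3.18 CPM and 3.41 to 5.36 CPM, and mast cell markers, which overlapped, to 0.930 to 1.45 CPM and 1.00 to 1.29 CPM. Of the tested genes in these lists, 2 of 4 for B cells and 1 of 1 for neutrophils rose, and 2 of 10 for macrophages, 3 of 6 for stroma, 3 of 5 for progenitors, 1 of 3 for dendritic cells and 1 of 1 for erythroid and megakaryocyte cells fell. Other sums hide mixed directions too. Log2 fold changes of tested markers below and above 0 were 4 and 1 for progenitors, 4 and 2 for stroma, and 2 and 1 for dendritic cells. Of the 7 neutrophil markers, KAT7KO values lay all below Ctrl for 2 and all above for 3. Of all 18039 genes, 2954 and 2800 did so. The part of these marker differences in the results on repair genes was not tested.

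The repair genes moved in both directions and about as often as any other gene. In KAT7KO macrophages Chek2 (ENSMUSG00000029521), Fance (ENSMUSG00000007570), Palb2 (ENSMUSG00000044702) and Rad51b (ENSMUSG00000059060) were higher. Brca1 (ENSMUSG00000017146), Xrcc3 (ENSMUSG00000021287), Exo1 (ENSMUSG00000039748), Chek1 (ENSMUSG00000032113) and Rad54b (ENSMUSG00000078773) were lower. These are 9 of 35 tested, or 25.7%, against 23.9% of the 12483 genes tested by edgeR's quasi-likelihood test at an adjusted p of 0.05. The 5 lower genes are 14.3% of the 35, against 13.2% of all genes, and the 4 higher genes are 11.4%, against 10.7%. Both shares lie near the background, so the counts are no result about the repair genes as a group. The 3 KAT7KO values all lay below the 3 Ctrl values for 8 of the genes and all above for 5, while 41% of all genes tested had no overlap, 21.2% lower and 19.9% higher. The median log2 fold change (KAT7KO over Ctrl) of the 35 was -0.11, with 22 values below 0 and 13 above, while the median of all genes tested was 0.0023. Among the 10433 tested genes within the members' own range of levels, 0.475 to 86.9 CPM, 13.3% fell and 8.50% rose. The distribution of levels inside this range was not matched to that of the members. In bulk RNA fewer cells of a type and less RNA per cell cannot be told apart.

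**Figure D1:**
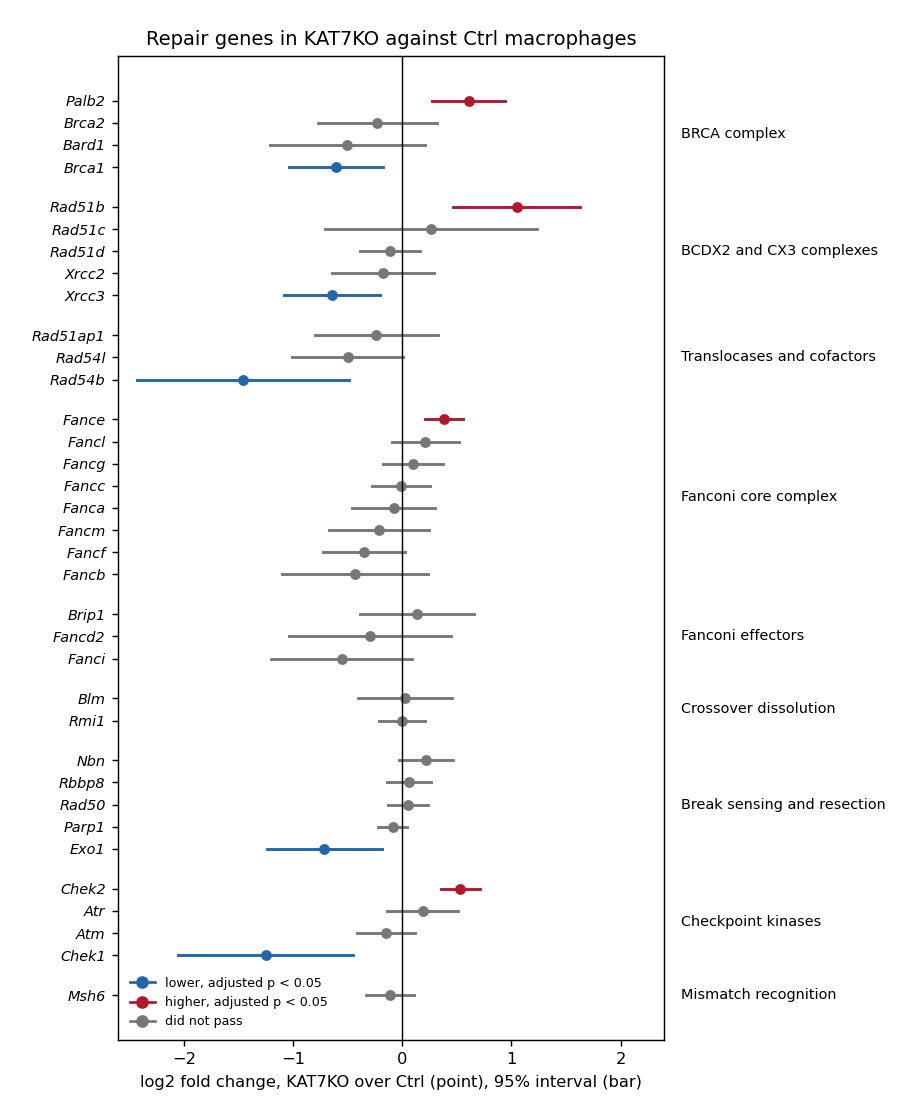
Log2 fold change of KAT7KO over Ctrl for the 35 tested repair genes, ordered by role, each as a point with its 95% interval (3 libraries per genotype). The 4 genes in red and 5 in blue passed the threshold, and most grey intervals cross 0 within a factor of 2 either way.

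Levels differed widely among the genes. Set per gene length, as the authors' FPKM, Parp1 was highest in Ctrl at 17.0 ± 1.55 FPKM (SD, n = 3), followed by Fance at 7.94 ± 0.590, Chek2 at 7.37 ± 0.717 and Nbn at 7.08 ± 1.40. Several recombination genes lay near the bottom: Brca2 stood at 0.174 ± 0.0437 FPKM, Rad54b at 0.121 ± 0.0337 and Rmi2, a subunit of the BLM complex, at 0.0693 ± 0.0264. Of the 35 tested genes, 21 had a mean under 5 CPM over the 6 libraries. All 5 genes that fell are among these 21, as are Palb2 and Rad51b among those that rose. Over all genes tested, 8.38% fell and 3.31% rose at a mean under 1 CPM, 13.9% and 3.06% at 1 to 2 CPM. At 2 to 5 CPM these shares were 19.1% and 3.49%. Of the repair genes, 2 of 4, 1 of 6 and 2 of 11 fell in these ranges, and 0, 1 and 1 rose. These numbers are too small for a result about the group. The standard error of a log2 fold change ran from 0.06 for Parp1 to 0.45 for Rad51c.

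**Figure D2:**
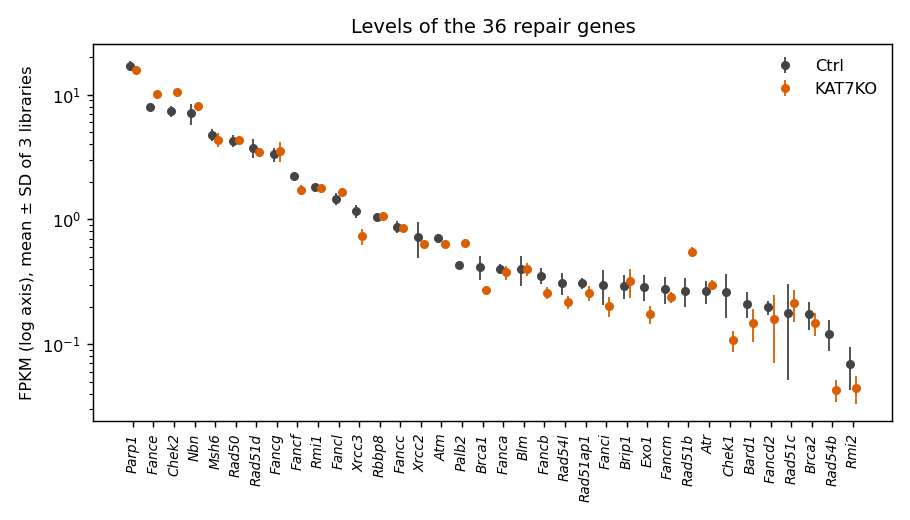
Level of the 36 repair genes per gene length, as the authors' FPKM on a log axis, mean ± SD of 3 libraries in Ctrl (grey) and KAT7KO (orange), in the order of the Ctrl means. Parp1 lies highest at 17.0 FPKM in Ctrl and Rmi2 lowest at 0.0693 FPKM, and the orange points of Rad54b, Chek1 and Rad51b stand farthest from their grey partners.

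The BRCA complex split between its members. Brca1, whose protein is a ubiquitin ligase that promotes end resection and recruits PALB2, measured 4.30, 3.27 and 3.04 CPM in Ctrl and 2.41, 2.34 and 2.22 CPM in KAT7KO, here and below in the order of replicates 1 to 3. Each KAT7KO value lay below each Ctrl value, and Ctrl replicate 1 held the highest. The log2 fold change was -0.61 (SE 0.20, adjusted p = 0.0398). Palb2, whose protein bridges BRCA1 and BRCA2, moved the other way, from 3.19, 2.98 and 3.23 CPM to 5.01, 4.87 and 4.45 CPM, with no overlap and little spread within a genotype. Its log2 fold change was 0.61 (SE 0.16, adjusted p = 0.0127), which is 152% of Ctrl with a 95% interval of 121% to 192%. An exon of Palb2 overlaps a pseudogene, Gm16326, on the opposite strand. Brca2, a core mediator of recombination on single strands, had 1.69, 2.93 and 2.50 CPM in Ctrl and 2.26, 1.54 and 2.27 CPM in KAT7KO. Bard1, the obligate partner of BRCA1, had 1.45, 0.928 and 1.18 CPM in Ctrl and 0.602, 1.09 and 0.809 CPM in KAT7KO. Both overlapped between the genotypes and did not pass, with log2 fold changes of -0.23 for Brca2 (adjusted p = 0.547) and -0.50 for Bard1 (adjusted p = 0.293). For Bard1 the 95% interval, 43.3% to 115% of Ctrl, still includes the size of the Brca1 fall.

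The genes of the BCDX2 and CX3 complexes, which help the recombination filament form on single strands, also went both ways. Rad51b, a subunit of the BCDX2 complex, rose from 0.870, 0.830 and 1.32 CPM to 1.91, 2.14 and 2.22 CPM. The KAT7KO libraries were all above the Ctrl libraries, of which replicate 3 was the highest, and the log2 fold change was 1.05 (SE 0.27, adjusted p = 0.0126). Xrcc3, which pairs with RAD51C in the CX3 complex, went from 3.38, 3.32 and 2.79 CPM to 2.26, 2.14 and 1.67 CPM without overlap. It fell, with a log2 fold change of -0.65 (SE 0.20, adjusted p = 0.0342). In the annotation at hand, which is of another build than the authors', exons of Xrcc3 overlap those of the opposite-strand gene Klc1, a kinesin light chain gene. Klc1 had 1529 to 1638 counts in Ctrl and 1182 to 1251 in KAT7KO and fell too (log2 fold change -0.31, adjusted p = 0.00156). The strand setting of the counting is not stated, so reads of these genes cannot be told apart where they overlap. In the same annotation, exons of 19 members overlap another gene, for 11 of them a protein-coding gene. The same limit holds for Rmi1, which overlaps opposite-strand Hnrnpk (6335 to 6521 counts in Ctrl, 6002 to 6419 in KAT7KO). It also holds for Fancl, which overlaps opposite-strand Vrk2 (log2 fold change 0.31, adjusted p = 0.0272).

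Rad51d, the best expressed of these 5 per gene length at 3.76 ± 0.640 FPKM in Ctrl, had 11.1, 16.1 and 14.6 CPM in Ctrl and 12.9, 11.8 and 13.9 CPM in KAT7KO. Xrcc2, its direct partner, had 2.95, 3.13 and 5.19 CPM in Ctrl and 3.41, 3.13 and 3.44 CPM in KAT7KO. For both, the KAT7KO values lay inside the range of the Ctrl values, and the log2 fold changes were -0.11 (adjusted p = 0.565) and -0.17 (adjusted p = 0.598). Rad51c, which belongs to both complexes, spread from 0.338 to 1.42 CPM within Ctrl, and its 95% interval ran from 61.1% to 235% of Ctrl.

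Among the translocases and cofactors of recombination all 3 fold changes were below 0, and 1 passed. Rad54b, a DNA translocase related to RAD54L, had 11, 13 and 19 counts in the Ctrl libraries and 6, 4 and 5 counts in the KAT7KO libraries. Its levels were 0.532, 0.635 and 0.930 CPM and 0.301, 0.199 and 0.253 CPM, which do not overlap, and the log2 fold change was -1.46 (SE 0.45, adjusted p = 0.0314). This is the largest fold change of the 35 and rests on few reads: its 95% interval runs from 18.6% to 71.4% of Ctrl. Fsbp, a gene that shares exons with Rad54b on the same strand, held 0 to 3 counts. Rad54l, the RAD54 translocase, which moves along DNA during recombination, had 47, 40 and 60 counts in Ctrl and 30, 33 and 38 counts in KAT7KO. No KAT7KO library reached a Ctrl library, yet the log2 fold change of -0.50 missed the threshold (adjusted p = 0.144). Rad51ap1, a DNA-binding cofactor, had 1.59, 1.47 and 1.37 CPM and 1.40, 1.29 and 1.06 CPM (log2 fold change -0.24, adjusted p = 0.549).

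In the Fanconi core complex 1 of 8 genes passed. Fance, whose protein links the core complex to FANCD2, was the best expressed of the 8 per gene length. It had 22.5, 26.8 and 26.3 CPM in Ctrl and 32.3, 33.3 and 32.7 CPM in KAT7KO. The KAT7KO values lay close together and above every Ctrl value, and the log2 fold change was 0.38 (SE 0.08, adjusted p = 0.00415), or 130% of Ctrl with a 95% interval of 115% to 147%. Fancc, a core scaffold gene, had 7.59, 7.62 and 6.46 CPM and 7.12, 7.31 and 7.02 CPM, and Fancg, which joins FANCA to the complex, had 13.8, 12.8 and 11.1 CPM and 16.2, 12.5 and 11.7 CPM. Both overlapped between the genotypes, with log2 fold changes of -0.01 for Fancc (adjusted p = 0.946) and 0.10 for Fancg (adjusted p = 0.617). Fancl, the ubiquitin ligase of the complex, Fanca, Fancm, Fancf and Fancb ran from 0.21 for Fancl to -0.43 for Fancb. Fancl lay at 4.45 to 5.57 CPM in Ctrl and 5.42 to 5.86 CPM in KAT7KO, Fancf at 3.53 to 4.16 CPM and 2.74 to 3.26 CPM, and Fancb at 0.918 to 1.22 CPM and 0.702 to 0.859 CPM. Fanca, the partner of Fancg, lay at 3.23 to 3.72 CPM and 2.83 to 3.66 CPM, and Fancm, the translocase that anchors the complex to DNA, at 2.30 to 3.58 CPM and 2.27 to 2.76 CPM. None of these 5 passed, although the 3 KAT7KO values lay below the Ctrl values for Fancf and Fancb.

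Of the 3 genes that act after the core complex none passed. Fancd2, a target of its ubiquitin ligase, spread from 0.708 to 2.06 CPM within KAT7KO, around the 1.37 to 1.76 CPM of Ctrl. Fanci, its partner in the clamp, measured 2.13, 1.12 and 1.91 CPM in Ctrl and 1.40, 0.995 and 1.11 CPM in KAT7KO. Brip1, the helicase that binds BRCA1, measured 2.61, 2.15 and 1.76 CPM in Ctrl and 3.11, 2.04 and 2.02 CPM in KAT7KO. The values of all 3 genes overlapped, with log2 fold changes of -0.29 for Fancd2, -0.55 for Fanci and 0.14 for Brip1 and adjusted p-values of 0.570, 0.200 and 0.723. The 95% intervals of Fancd2 (48.9% to 136% of Ctrl) and Fanci (43.6% to 106%) include a 2-fold fall, so a fall of that size is not excluded for these genes.

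In the complex that takes apart joined recombination intermediates the fold changes were near 0 on the log2 scale. Blm, its helicase, had 4.45, 3.13 and 2.84 CPM in Ctrl and 3.56, 3.08 and 3.94 CPM in KAT7KO, and Rmi1, a scaffold subunit, had 237, 249 and 245 counts in Ctrl and 222, 251 and 235 counts in KAT7KO. Their log2 fold changes were 0.02 (adjusted p = 0.948) and -0.0048 (adjusted p = 0.976). The 95% interval of Rmi1 was 86.2% to 115% of Ctrl, while that of Blm was wider, 75.3% to 137%. Rmi2 had 5 to 9 counts in Ctrl and 3 to 5 counts in KAT7KO and was not tested.

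Among the genes of break sensing and end resection only the exonuclease gene passed. Exo1, whose protein digests the broken end over long stretches, had 62, 43 and 44 counts in Ctrl and 24, 31 and 33 counts in KAT7KO. The groups did not overlap, and Ctrl replicate 1 was again the highest library, with a log2 fold change of -0.72 (SE 0.25, adjusted p = 0.0482). Parp1 had 96.6, 86.1 and 86.0 CPM in Ctrl and 80.5, 89.4 and 82.8 CPM in KAT7KO, and Rad50, the long coiled-coil subunit of the MRN break sensor, had 517, 455 and 428 counts and 452, 480 and 480 counts. Both overlapped and had narrow intervals, 85.7% to 103% of Ctrl for Parp1 and 91.4% to 118% for Rad50 (adjusted p = 0.331 and 0.684). Rbbp8, which encodes the resection factor CtIP, lay at 12.7 to 13.1 CPM in Ctrl and 12.5 to 14.2 CPM in KAT7KO and did not pass (log2 fold change 0.06). Nbn, the MRN subunit that recruits ATM, lay at 14.0 to 20.3 CPM in Ctrl and 20.3 to 21.3 CPM in KAT7KO and was higher in each KAT7KO library, though hardly above Ctrl replicate 1. Its log2 fold change was 0.22 (adjusted p = 0.196), and Nbn passed when Ctrl replicate 1 was left out (0.32, adjusted p = 0.0121). Without Ctrl replicate 2, the lowest Ctrl library for Nbn at 14.0 CPM, the log2 fold change was 0.068 (adjusted p = 0.672).

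The checkpoint kinases Chek2 and Chek1 went in opposite directions. ATM answers double-strand breaks and activates CHEK2, and ATR answers exposed single strands at forks and activates CHEK1. Chek2 had 23.0, 19.7 and 23.3 CPM in Ctrl and 31.2, 32.9 and 31.2 CPM in KAT7KO. Every KAT7KO library was above every Ctrl library, and the log2 fold change of 0.53 (SE 0.08, adjusted p = 4.33e-04) had the smallest p of the 35 genes. Chek1 had 35, 18 and 21 counts in Ctrl and 8, 12 and 10 counts in KAT7KO, or 1.69, 0.879 and 1.03 CPM and 0.401, 0.597 and 0.505 CPM. The groups did not overlap, although Ctrl replicate 1 stood well above the other Ctrl libraries, and Chek1 had a log2 fold change of -1.25 (SE 0.37, adjusted p = 0.0265; 95% interval 24.1% to 73.3% of Ctrl). Per gene length, Chek2 stood at 7.37 ± 0.717 FPKM in Ctrl and 10.5 ± 0.325 in KAT7KO, and Chek1 at 0.262 ± 0.100 FPKM in Ctrl and 0.107 ± 0.0210 in KAT7KO (SD, n = 3). The kinases upstream did not pass: Atm had 7.54, 7.62 and 6.85 CPM in Ctrl and 6.47, 7.01 and 6.37 CPM in KAT7KO, and Atr had 7.06, 6.69 and 4.90 CPM and 6.42, 7.71 and 7.13 CPM. Their log2 fold changes were -0.15 (adjusted p = 0.405) and 0.19 (adjusted p = 0.397). Msh6, the mismatch recognition gene, had 462, 384 and 423 counts in Ctrl and 347, 362 and 432 counts in KAT7KO, which overlap (log2 fold change -0.11, adjusted p = 0.462).

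**Figure D3:**
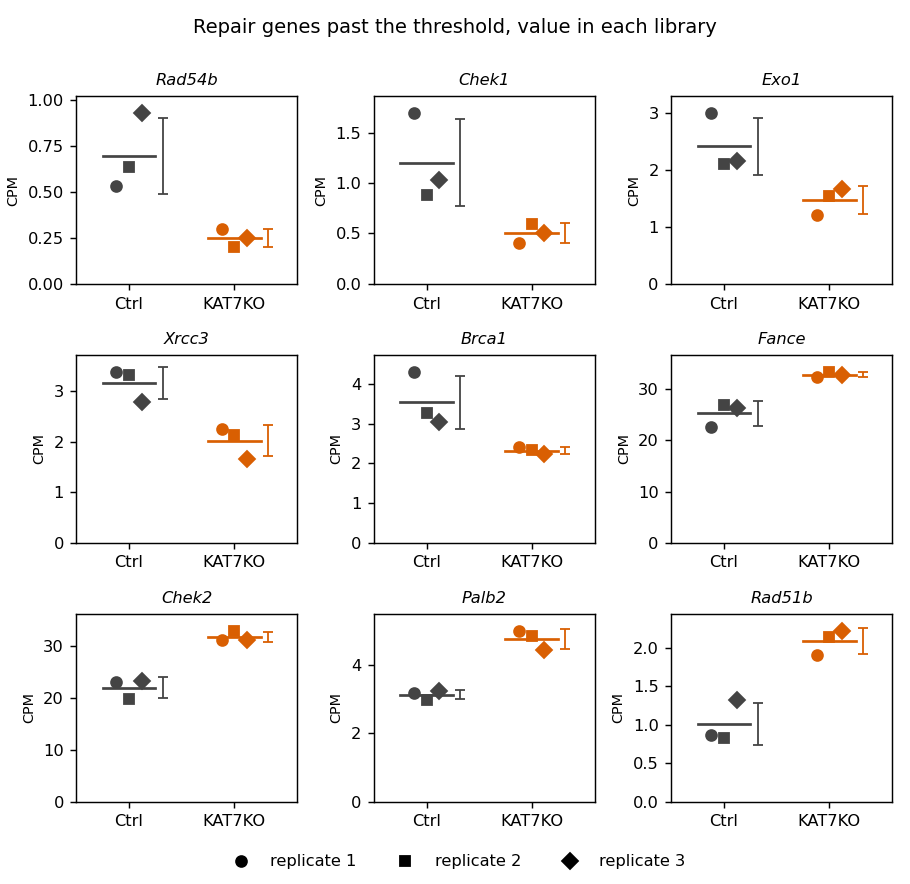
Level in CPM of the 9 repair genes past the threshold in each library (marker shape gives the replicate number), with the mean as a line and the SD as an error bar, each panel from 0. For every gene the 3 KAT7KO values lie outside the range of the 3 Ctrl values. Ctrl replicate 1 is the highest library for Chek1, Exo1 and Brca1, and by a small margin for Xrcc3.

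Promoter sequences are shown for the 3 genes of smallest p with a window in the reference, Chek2, Fance and Rad51b, and for Chek1, which was added after its values were seen because it is the opposite partner of Chek2. Each is the RefSeq window (GRCm38.p6) of the 250 bases before the transcription start, on the gene's own strand, and the first of 2 listed windows for Rad51b. Capitals mark every match, on either strand, to an E2F-type motif (the letters TTCCCGC, the letters TTTGGCG or the letters TTTCGCG), a CHR element (the letters TTTGAA or the letters TTCGAA) or a CCAAT box (CCAAT). E2F factors and the DREAM complex, which binds CHR elements, time the transcription of cell cycle genes, and CCAAT boxes bind NF-Y.
Chek2, chr5:110839733-110839982, plus strand: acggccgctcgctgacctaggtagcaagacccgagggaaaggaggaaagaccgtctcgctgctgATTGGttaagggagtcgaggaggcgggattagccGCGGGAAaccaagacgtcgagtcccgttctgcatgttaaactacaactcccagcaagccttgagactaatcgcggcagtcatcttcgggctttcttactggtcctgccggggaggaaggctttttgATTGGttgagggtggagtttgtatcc
Fance, chr17:28313280-28313529, plus strand: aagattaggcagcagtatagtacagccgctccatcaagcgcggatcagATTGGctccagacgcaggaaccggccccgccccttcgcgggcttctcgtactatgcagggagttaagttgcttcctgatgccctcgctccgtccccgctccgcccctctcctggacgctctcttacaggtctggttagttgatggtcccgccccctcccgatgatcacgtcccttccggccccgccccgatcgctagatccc
Rad51b, chr12:79297032-79297281, plus strand: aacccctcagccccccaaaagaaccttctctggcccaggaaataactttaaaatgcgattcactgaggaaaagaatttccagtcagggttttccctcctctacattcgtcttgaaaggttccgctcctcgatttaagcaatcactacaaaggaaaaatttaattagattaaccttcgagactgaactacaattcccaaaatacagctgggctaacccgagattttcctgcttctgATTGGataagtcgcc
Chek1, chr9:36726659-36726908, minus strand: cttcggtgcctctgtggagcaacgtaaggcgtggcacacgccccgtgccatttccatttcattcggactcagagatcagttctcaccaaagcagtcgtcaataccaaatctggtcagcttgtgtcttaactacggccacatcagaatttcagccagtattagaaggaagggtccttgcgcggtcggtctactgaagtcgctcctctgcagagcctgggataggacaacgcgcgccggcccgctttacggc
The Chek2 window held 1 E2F-type match, 152 bases before the start and on the opposite strand, and 2 CCAAT boxes, at 186 and 26 bases. Fance and Rad51b held 1 CCAAT box each in these windows, at 202 and 15 bases, and Chek1 held no match to any of the 3 motif types. Of the 36 repair genes 27 had a window, and 8 of them (29.6%) had an E2F-type match, against 6.38% of the 27025 genes in the reference table. A CCAAT box was present in 17 (63.0%), against 37.5%, and a CHR element in 2 (7.41%), against 19.6%. The reference table was not limited to the genes tested here, so these shares come from unlike sets of genes. The median GC content was 58.4% in the members' windows and 52.4% in all windows, and the part of base composition in these shares was not tested. Among the genes that changed, an E2F-type match was found for 0 of 3 that fell and 2 of 4 that rose (Chek2, and Rad51b in its other window), and 6 of the 20 that did not pass had one. A match of letters is not a bound site, and its absence from a window says nothing about binding.

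Other genes of recombination and the Fanconi pathway were listed for comparison. Of 48 tested, 3 rose and 3 fell (6.25% each, against the 10.7% and 13.2% of all genes), and the median log2 fold change was 0.03. Fignl1, an ATPase of recombination, fell by 0.62 on the log2 scale (adjusted p = 0.00809). Swsap1, a subunit of the Shu complex, rose by 0.59 (adjusted p = 0.0185), and Mad2l2, a subunit of the shieldin complex and of a translesion polymerase, rose by 0.39 (adjusted p = 0.0212).

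In the other repair routes 5 genes rose and 5 fell of 74 tested. Of 22 genes of the break response and checkpoint 1 rose and 2 fell: Clspn, whose protein claspin lets ATR activate CHEK1, fell by 0.85 on the log2 scale (adjusted p = 0.00370), Cdc25a, a phosphatase that CHEK1 restrains, fell by 0.35 (adjusted p = 0.0332), and Rad1, part of the 9-1-1 clamp, rose by 0.31 (adjusted p = 0.0427). In end joining 1 of 11 fell, the polymerase gene Polm (-0.35, adjusted p = 0.0348), and in nucleotide excision 1 of 16 fell, Ercc6, the transcription-coupled repair factor CSB (-0.58, adjusted p = 6.56e-04). In mismatch repair 2 of 6 genes rose and 1 fell. Pms2, a MutL subunit, was among those that rose, by 0.49 (adjusted p = 0.0444), and Pms1, a related subunit, fell by 0.78 (adjusted p = 0.0225). In base excision 2 of 19 genes rose, among them Parp2, the close relative of Parp1, by 0.24 (adjusted p = 0.0467).

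Genes of the dividing cell fell in the same libraries. Of 24 tested genes of G2 and mitosis 21 fell and 0 rose, with a median log2 fold change of -0.68 and a summed level of 223 to 227 CPM in Ctrl and 140 to 149 CPM in KAT7KO. Of 28 genes of replication and S phase 10 fell and 0 rose, with a median of -0.30 and a summed level of 618 to 664 CPM in Ctrl and 579 to 602 CPM in KAT7KO. Examples by the rule for naming are Top2a (-0.71), Plk1 (-1.05), Mki67 (-0.66) and Aurkb (-0.81) for mitosis and Rrm2 (-0.76), Uhrf1 (-0.71), Mcm6 (-0.34) and Mcm7 (-0.36) for S phase. The log2 fold changes of the 5 repair genes that fell lay between -0.61 for Brca1 and -1.46 for Rad54b. Those of all 24 G2 and mitosis genes lay between -0.37 and -1.19. The 5 were picked by the threshold and the 24 were not, so these ranges cannot be set against each other. The cell cycle lists were themselves chosen with earlier results of these data known. The median of all 35 tested repair genes was -0.11. The summed level of the 36 repair genes was 313 to 336 CPM in Ctrl and 327 to 337 CPM in KAT7KO, which overlap. The part of cell division in the falls of the repair genes was not tested.

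**Figure D4:**
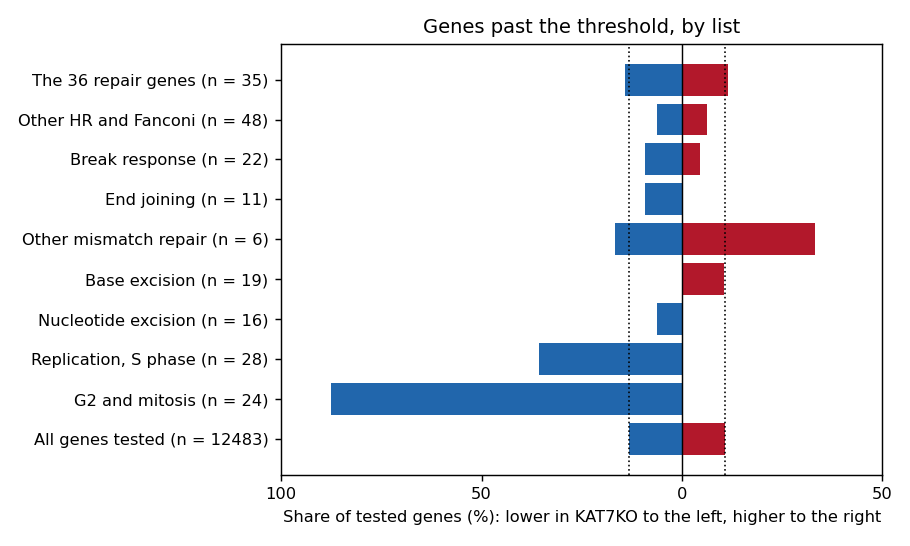
Share of tested genes in each list that were lower (blue, to the left) or higher (red, to the right) in KAT7KO at an adjusted p of 0.05, with dotted lines at the shares of all genes tested, 13.2% lower and 10.7% higher. The repair genes sit at 14.3% and 11.4%, next to the lines, while 87.5% of G2 and mitosis genes were lower. The lists were chosen with earlier results of these data known.

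The calls of the rises depended less on the setting than those of the falls. Chek2 passed under each of 15 alternatives, with log2 fold changes of 0.46 to 0.58, and Fance under 14, failing only the test for a change over 1.2-fold (adjusted p = 0.220). Palb2 lost its call in that test (adjusted p = 0.0860) and without KAT7KO replicate 1 (adjusted p = 0.0524), and Rad51b without Ctrl replicate 2 (adjusted p = 0.0526) or KAT7KO replicate 3 (adjusted p = 0.0518). None of the 5 falls passed when any 1 KAT7KO library was left out. Calls over all genes dropped in these fits too, from 1335 to between 663 and 740 higher. Over all genes the number lower went from 1652 to between 1071 and 1139. Without Ctrl replicate 1 only Rad54b passed among them, without Ctrl replicate 2 only Chek1, and without Ctrl replicate 3 all but Rad54b. Leaving out Ctrl replicate 1, the highest library for these genes, gave log2 fold changes of -0.44 for Brca1 (adjusted p = 0.175), -0.53 for Exo1 (adjusted p = 0.189) and -0.92 for Chek1 (adjusted p = 0.136). With DESeq2 only Chek1 passed of the 5. All 9 genes kept their direction under each alternative run.

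**Figure D5:**
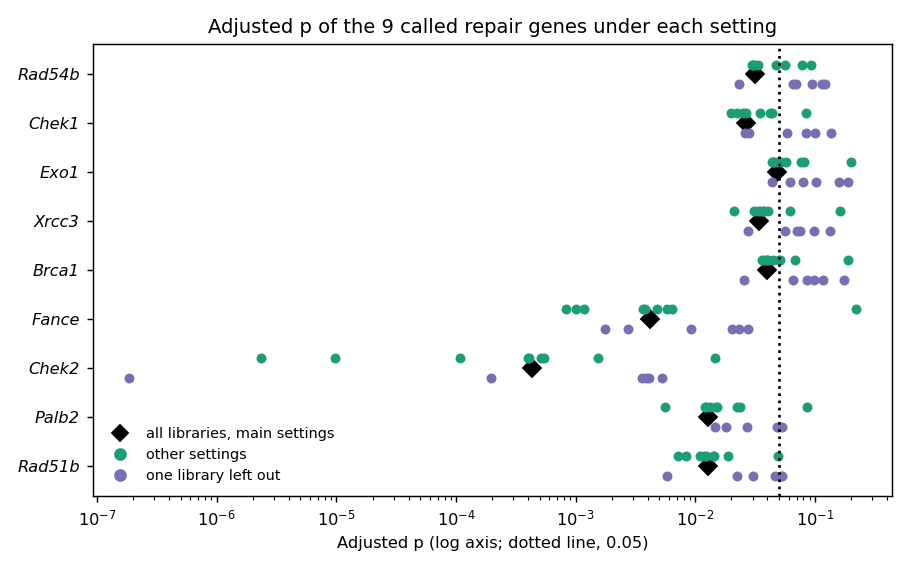
Adjusted p, on a log axis, of the 9 called repair genes with all libraries and the main settings (black), under other settings (green) and with 1 library left out (purple), with a dotted line at 0.05. Every point of Chek2 lies left of the line, while Brca1, Xrcc3, Exo1, Chek1 and Rad54b have points on both sides.

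The authors' deposited table called 4 of the 36 genes at their adjusted p of 0.05, the same 4 that rose here, and none of those that fell. It called 2435 of all 18039 genes, so this count is no result about the repair genes as a group. Its log2 fold changes were 0.54 for Chek2, 0.39 for Fance, 0.62 for Palb2 and 1.06 for Rad51b. For the falls the authors' deposited table gave -0.60 for Brca1, -0.64 for Xrcc3, -0.71 for Exo1, -1.25 for Chek1 and -1.47 for Rad54b, with adjusted p-values from 0.0702 for Chek1 to 0.125 for Exo1. Of the 26 tested genes that did not pass here, 20 had a 95% interval within 2-fold either way and 14 within 1.5-fold. The interval reached a 2-fold fall for 5 and a 2-fold rise for 1, so for these 6 a change of that size is not excluded.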

How the data were processed

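Bulk RNA-seq of 6 macrophage libraries was read from 1 deposited table. Its count columns hold raw whole-number counts per gene as the authors deposited them, and its FPKM values, scaled to gene length and library size, are also the authors'. The deposited log2 fold change is the authors', as are the deposited p-value columns. The submitters' processing notes name GRCm39 as the build and FastQC, fastp, HISAT2, featureCounts and DESeq2 as tools. Nothing there states the strand setting or how shared reads were treated.

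Of 18039 genes, 12483 passed filterByExpr. KAT7KO was set against Ctrl with edgeR's quasi-likelihood test (version 4.0.16, R 4.3.3; TMM factors, robust glmQLFit), adjusted by Benjamini-Hochberg over all genes tested at 0.05. The SE is the fold change over the square root of F, and intervals are at 95%. Depth was 19906726 to 20660090 counts per library, and intervals are for the fold change and rest on the spread between these libraries. Replicate pairs differed by more than sampling noise (mean chi-square per gene 2.70 to 20.1, highest in pairs with Ctrl replicate 1), so each counted as 1 sample. The code was tested on simulated data. Promoters and exon overlaps come from GRCm38 references, used for names and sequences only. Per-library values are given for members past the threshold and for the 2 best expressed others of each role. From each other repair or cell cycle list up to 4 genes past the threshold are named in order of p; some are not reported here. Members, lists and motifs were chosen with earlier results of these data known. Alternatives were DESeq2 size factors, upper-quartile factors, no filter, a filter at 1 CPM in 3 libraries, DESeq2 1.42.0, limma-voom (limma 3.58.1), a replicate block, removal of a gene length trend (loess, span 0.5), glmTreat against a fold of 1.2, and leaving out each library.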

Additional observations from a re-analysis of the deposited data

How the results depend on the processing

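The number of repair genes that rose, 4, was 2 in the test for a change over 1.2-fold and 3 to 5 with 1 library left out. The number that fell, 5, was 3 with the filter at 1 CPM (which Chek1 and Rad54b do not pass), 3 with limma-voom, 1 with DESeq2, 0 for a change over 1.2-fold, and 0 to 4 with 1 library left out. Over all genes 1335 rose and 1652 fell. The number that fell was 1646 of 11581 tested with the filter at 1 CPM, and of 12483 tested 1616 with limma-voom and 1429 with DESeq2. For a change over 1.2-fold 199 rose and 641 fell, and with 1 library left out 663 to 1708 rose and 1071 to 1820 fell. Other recombination and Fanconi genes gave 0 and 0 over 1.2-fold, and 0 to 4 higher and 1 to 4 lower with 1 library left out. The 5 higher genes of other repair routes became 0 with upper-quartile factors, 0 with DESeq2, 3 with no filter, 3 with the filter at 1 CPM and 0 over 1.2-fold, and 0 to 6 with 1 library left out. Their 5 lower became 3 with DESeq2, 8 with the length trend removed and 2 over 1.2-fold, and 2 to 7 with 1 library left out. S phase genes lower, 10, were 2 over 1.2-fold and 5 to 13 with 1 library left out. G2 and mitosis genes lower, 21, were 12 over 1.2-fold and 17 to 22 with 1 library left out. The cause of these shifts was not tested.

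Samples with the same replicate number did not deviate together (correlation of deviations -0.0044, 0.0059 and 0.021 over genes), and not every sample correlated best with its own number. The labels do not say whether the numbers pair the samples, and 3 libraries per genotype are too few to exclude it. With the replicate block 4 repair genes rose and 3 fell, while 1290 of all genes rose and 1522 fell. Other repair routes gave 3 higher with it, and S phase gave 1 higher. No value changed direction among the called genes. The 21 tested repair genes under 5 CPM limit what these libraries can show.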
